A study of Mus musculus with 4 samples.

Results

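The genes described are those of the proteasome, the protease complex that degrades ubiquitin-tagged proteins, in spleens of Nrf2 knockout and wild-type mice. Members were all probe sets, other than array controls, whose only platform gene symbol begins with Psma to Psmg followed by a digit. They are 46 of 8251 genes with such a probe set, measured by 58 of 12422 probe sets, and 51 probe sets of 44 genes were bright enough to test. Psmc3ip and Psme3ip1 meet that rule but encode proteins named after a subunit they bind, and are set apart from the roles below, which leaves 49 tested probe sets. Total RNA was measured on 1-colour expression arrays from 2 knockout samples (nrf2 -/-) and 2 littermate wild-type samples (nrf2 +/+), all from spleens of female mice 5 months old. Both genotypes came from crosses of heterozygotes, whose own parents were Nrf2 +/+ mice labelled C57B6/SJL and nrf2 -/- mice labelled C57B6/129SVJ. The labels name no agent for either group and place the age before severe autoimmune disease. They do not say how the allele was made or whether a sample is 1 mouse or a pool, so the spread between samples may be technical.

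The proteasome has a barrel-shaped core of alpha and beta subunits and a regulatory particle that recognises, unfolds and threads in tagged proteins. The beta subunits Psmb6, Psmb7 and Psmb5 carry the caspase-like, trypsin-like and chymotrypsin-like activities. In lymphoid cells and under interferon-gamma they are replaced by Psmb9, Psmb10 and Psmb8, which form the immunoproteasome and favour peptides suited to MHC class I, and the interferon-induced Psme1 and Psme2 form the activator PA28. Nrf2, encoded by Nfe2l2, is a transcription factor that binds antioxidant response elements, and in mouse liver and fibroblasts its activators are known to raise core subunits such as Psmb5. The related factor Nrf1, encoded by Nfe2l1, maintains proteasome genes when the proteasome is inhibited.

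The promoters of the catalytic subunits are shown because they place the constitutive and the immune genes beside each other for the element that Nrf2 binds. Each line gives the 250 bases before the RefSeq start site (GRCm38.p6), 5′ to 3′ on the gene's strand, with matches to TGANNNNGC, the core of the antioxidant response element, in capitals. The table used holds no window for Psmb7.
Psmb5, chr14:54617996-54618245, reverse strand: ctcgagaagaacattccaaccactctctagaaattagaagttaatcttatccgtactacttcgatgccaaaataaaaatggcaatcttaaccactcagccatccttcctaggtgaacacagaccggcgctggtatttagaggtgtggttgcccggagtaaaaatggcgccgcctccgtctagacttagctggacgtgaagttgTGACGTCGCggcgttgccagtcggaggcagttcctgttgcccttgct
Psmb8, chr17:34197945-34198194, forward strand: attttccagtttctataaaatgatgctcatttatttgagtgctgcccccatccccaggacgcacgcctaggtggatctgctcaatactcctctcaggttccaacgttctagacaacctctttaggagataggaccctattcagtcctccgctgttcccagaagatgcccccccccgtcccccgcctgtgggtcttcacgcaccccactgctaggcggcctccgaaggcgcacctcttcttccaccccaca
Psmb6, chr11:70525107-70525356, forward strand: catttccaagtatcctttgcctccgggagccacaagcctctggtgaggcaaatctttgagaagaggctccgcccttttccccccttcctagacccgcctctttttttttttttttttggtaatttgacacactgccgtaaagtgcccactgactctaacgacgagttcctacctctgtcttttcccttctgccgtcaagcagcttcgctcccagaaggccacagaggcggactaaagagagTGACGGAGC
Psmb9, chr17:34187331-34187580, reverse strand: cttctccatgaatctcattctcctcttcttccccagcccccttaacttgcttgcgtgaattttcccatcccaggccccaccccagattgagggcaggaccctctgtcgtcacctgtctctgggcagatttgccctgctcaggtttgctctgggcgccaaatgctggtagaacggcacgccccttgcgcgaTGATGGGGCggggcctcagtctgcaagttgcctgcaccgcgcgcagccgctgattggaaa
Psmb10, chr8:105938393-105938642, reverse strand: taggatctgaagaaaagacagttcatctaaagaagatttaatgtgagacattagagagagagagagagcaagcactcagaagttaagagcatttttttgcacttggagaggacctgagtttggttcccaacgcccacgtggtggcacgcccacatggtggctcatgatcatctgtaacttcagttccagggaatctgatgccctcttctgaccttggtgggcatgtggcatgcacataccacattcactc

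In these lines Psmb5, Psmb6 and Psmb9 each hold 1 match, with its first base 47, 9 and 60 bases before the start site, and Psmb8 and Psmb10 hold none. Promoter windows of 300 bases, 250 before and 50 after the start, were found for 39 of the 46 genes (42 windows, since some genes have more than 1). In the bases from the start site on, which the lines do not show, Psmb8 held a match at base 24 and Psmb5 a second at base 42. Psmb10 held none there either, so among the immunoproteasome members Psmb8 and Psmb9 had a match. Psme2, whose probe set carries a second symbol and is not counted among the members, held a match in each of its windows. On either strand TGANNNNGC was in 24 of 42 windows (57.1%), against 41.3% of all 32851 windows in the table. By role it was in 4 of 4 windows of constitutive beta subunits, 5 of 8 of alpha subunits, 2 of 4 of immunoproteasome genes, 2 of 6 of regulatory ATPases and 6 of 12 of regulatory non-ATPases. GAAANNGAA, the spaced cores of the interferon-stimulated response element, which can share bases with the first motif, was in 7 of 42 windows (16.7%), against 8.56% of all. Of the 4 immunoproteasome windows only that of Psme1 held it. A match describes letters in a window and is no measured site.

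Nfe2l2 gave 202 and 178.6 on the knockout arrays, compared with 3537 and 6321 on the wild-type arrays. The values are deposited intensities, comparable between arrays for a probe set but not between probe sets. The floor was the pooled 25th percentile of 185. None of the 9 measured B cell, 10 T cell and 9 red pulp macrophage markers lay below it on every array. The macrophage marker Adgre1 lay below it in wild-type replicate 1, at 123.5. Wild-type replicate 1 stood apart. Across the 51 tested members, which are not independent replicates, its Pearson's r with the other 3 arrays was 0.829 to 0.871, and those 3 correlated with each other at 0.969 to 0.974. The ratio of 3' to 5' signal for the Gapdh control was 88.3 in that array, against 25.5 and 34.8 in knockout replicates 1 and 2 and 8.07 in wild-type replicate 2. For the beta-actin control the ratio was 14.4 in that array, against 19.3 and 16.1 in the knockouts and 8.86 in wild-type replicate 2. Values without that array are given for each role and for many of the members.

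No proteasome probe set passed the test between genotypes (limma on log2 intensity, knockout minus wild type, 2 arrays in each group). Of the 51 tested, 22 lay higher and 29 lower in the knockouts, and limma's smallest adjusted p was 0.992. Over all 7452 tested probe sets 0.0537% passed an adjusted p under 0.05. An unadjusted p under 0.05 was reached by 0 members, where 1.78% of all tested probe sets reached it. The differences ran from -1.01 to 1.17 on the log2 scale with a median of -0.20, against a median of 0.04 over all tested probe sets. Both knockout values lay below both wild-type values in 11 of the 51, against 12.2% of all probe sets, and above both in 5, against 14.2%.

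**Figure D1:**
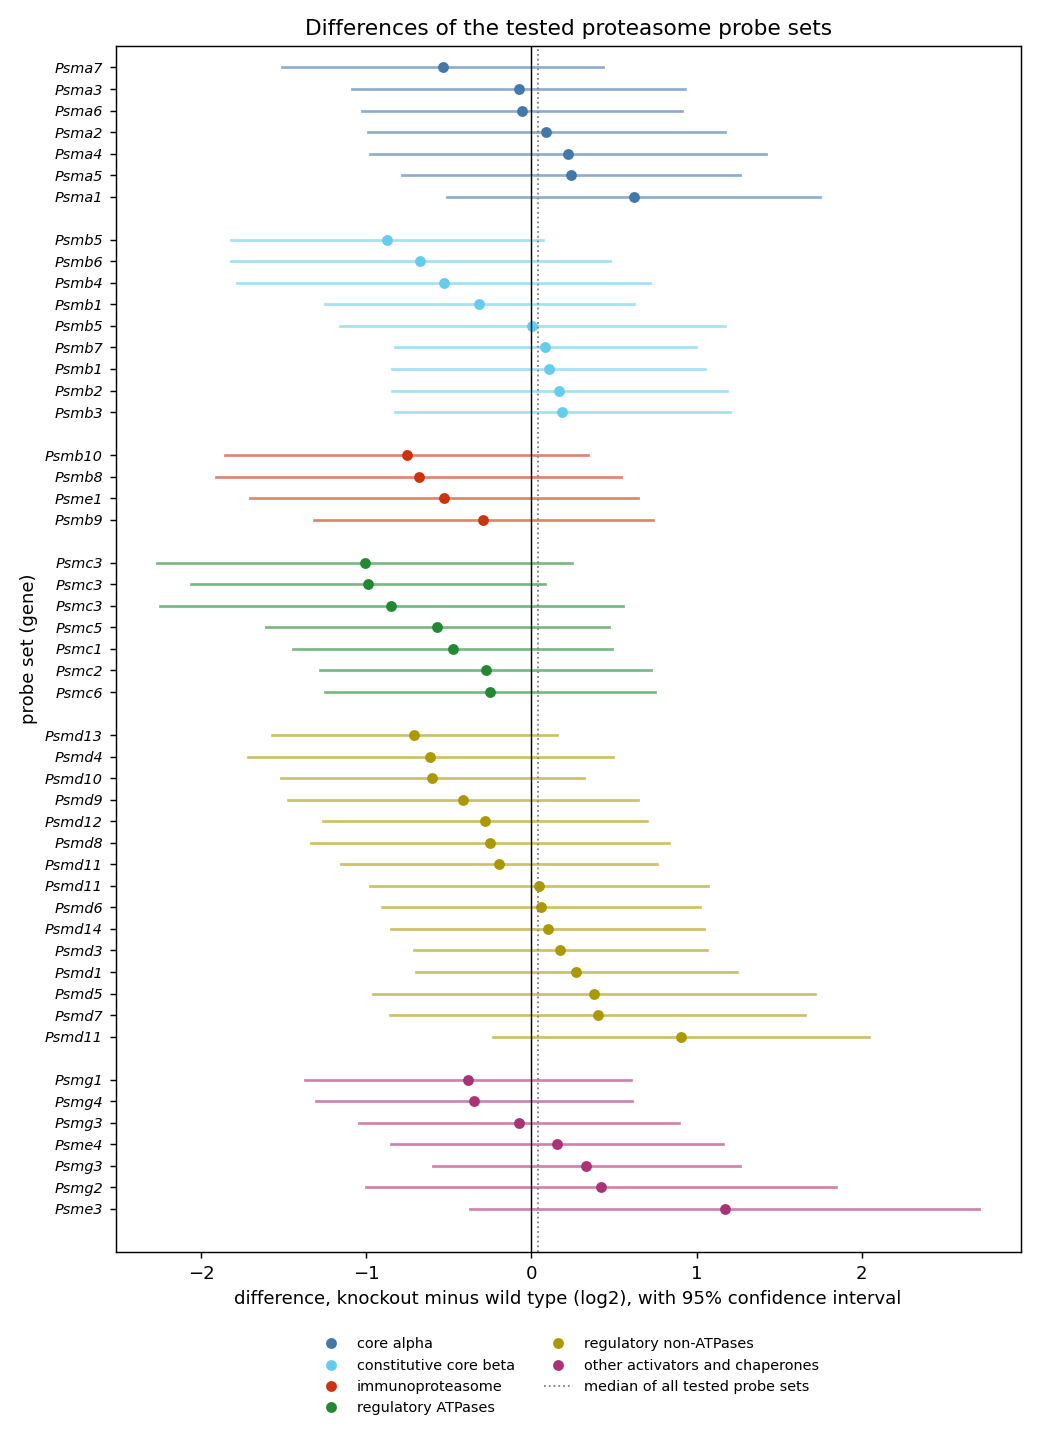
Differences of the 49 tested probe sets of proteasome genes, knockout minus wild type on the log2 scale (horizontal axis, with 95% confidence interval), one row per probe set grouped by role. All intervals include 0, and the 7 probe sets of regulatory ATPases and the 4 of the immunoproteasome lie left of 0.

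The 5 genes of the immunoproteasome measured lower in knockout spleen on their brightest probe sets, none past the threshold. The 4 with a single gene name had a median difference of -0.61, between -0.76 and -0.29. Psmb8, which takes the place of Psmb5, had intensities of 40905 and 27580 in the knockouts, versus 80865 and 35949 in the wild types. Knockout replicate 1 lay above wild-type replicate 2, so the genotypes overlapped (log2 -0.68, SE 0.53, 95% interval from -1.91 to 0.54, 2 arrays in each group, limma adjusted p = 0.992). Psmb10, which takes the place of Psmb7, measured 14049 and 9829 in Nrf2 -/- spleens, while Nrf2 +/+ spleens gave 26624 and 14794. It was the 1 single-named gene of the 4 whose genotypes did not overlap (log2 -0.76, SE 0.47, adjusted p = 0.992).

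Psmb9, which takes the place of Psmb6, gave 14698 and 9065 on the knockout arrays, compared with 12688 and 15745 on the wild-type arrays. It differed from the others in that wild-type replicate 1 was not its highest array (log2 -0.29, SE 0.44, adjusted p = 0.992, and -0.45 without that array). Psme1, the alpha subunit of PA28, had intensities of 36279 and 25598 in the knockouts, versus 63189 and 30626 in the wild types. Its genotypes overlapped as those of Psmb8 did (log2 -0.53, SE 0.51, adjusted p = 0.992). Psme2, the beta subunit of PA28, was measured by a probe set that is also assigned to its near copy Psme2b, so these cannot be told apart and it is not counted among the members. It measured 13880 and 11983 in Nrf2 -/- spleens, while Nrf2 +/+ spleens gave 25718 and 15923, without overlap (log2 -0.65, SE 0.44, adjusted p = 0.992).

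Knockout replicate 2 was the lowest array for Psmb8, Psmb9, Psmb10, Psme1 and the shared Psme2 probe set. Within the knockout pair the 4 single-named genes were higher in replicate 1 by a median of 0.54 on the log2 scale, against 0.01 over all tested probe sets. Within the wild-type pair Psmb8, Psmb10 and Psme1 were higher in replicate 1, by a median over the 4 genes of 0.95. The median difference of -0.61 between genotypes was thus of the size of the distances between arrays of 1 genotype. Without wild-type replicate 1 it was -0.22 with 4 of 4 lower, where Psmb8, Psmb10 and Psme1 differed by -0.10, -0.33 and -0.0072, and without wild-type replicate 2 it was -1.12. Without knockout replicate 2 it was -0.34 with 3 of 4 lower, since Psmb9 then differed by 0.06.

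**Figure D2:**
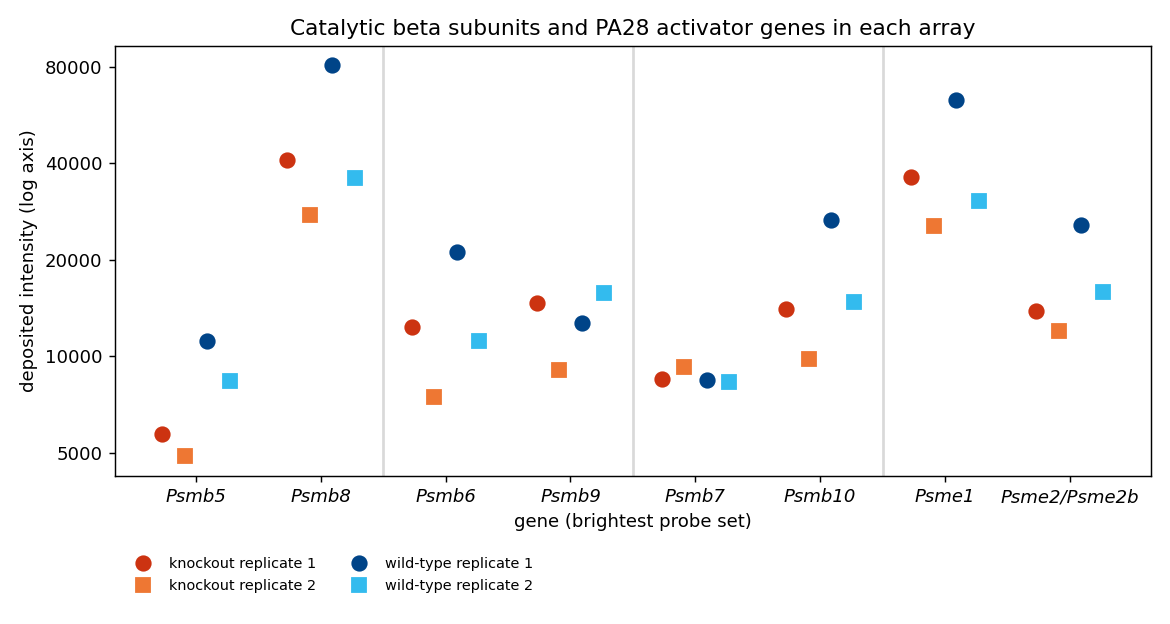
Deposited intensity (log axis) of each array for the constitutive catalytic subunits, their immune counterparts beside them, and the PA28 genes, with knockout arrays left of wild-type arrays. Knockout replicate 2 is lowest for Psmb8, Psmb9, Psmb10, Psme1 and Psme2/Psme2b, and Psmb7 is nearly level over the 4 arrays.

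Immunoproteasome genes are most active in lymphoid cells, and lymphocyte markers followed a similar order of arrays. The order was not particular to these genes. Median deviations of the regulatory ATPases from their 4-array means were also lowest in knockout replicate 2 (-0.32) and highest in wild-type replicate 1 (0.71). The 9 tested B cell markers had a median difference of -0.49, with 8 of 9 lower in knockout spleen and 0 past the threshold. That median was -0.24 without wild-type replicate 1 (7 of 9 lower), -0.83 when wild-type replicate 2 was left out, and -0.82 when knockout replicate 1 was. Their summed intensity over 9 measured genes was 147819 to 171462 in knockout and 173092 to 322638 in wild-type spleen, with knockout replicate 2 lowest and wild-type replicate 1 highest. For T cells 8 of 9 tested markers were lower (median -0.50, 0 past the threshold), and the sum over 10 measured genes was 39197 to 46300 in knockout and 52261 to 77328 in wild-type spleen, with the same lowest and highest arrays. The T cell median was -0.22 without wild-type replicate 1, -0.79 when wild-type replicate 2 was left out, and -0.18 when knockout replicate 2 was (6 of 9 lower). No marker of either list was at 0. Since probe sets differ in brightness, each sum is weighted to its brightest ones. In the B cell list Ms4a1 gave 63896 and 65226 in the knockouts, versus 145330 and 56641 in the wild types, so it overlapped. Their part in the immunoproteasome values was not tested, and in whole spleen fewer cells of a type and less RNA per cell cannot be told apart.

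Among the constitutive beta subunits 5 of 9 tested probe sets measured higher and 4 lower in knockout spleen, with a median of 0.00 and none past the threshold. That median was -0.21 without wild-type replicate 1. Psmb5, the chymotrypsin-like subunit, had intensities on its brighter probe set of 5721 and 4885 in the knockouts, versus 11206 and 8356 in the wild types. Both knockout values lay below both wild-type values (log2 -0.87, SE 0.41, 95% confidence interval -1.82 to 0.07, unadjusted p = 0.0657, limma adjusted p = 0.992). This was the smallest unadjusted p of all 51 tested members. The other Psmb5 probe set gave 691 and 666 on the knockout arrays, compared with 840 and 544 on the wild-type arrays, so it did not separate the genotypes (log2 0.00). The name of the brighter probe set carries a mark of possible cross-hybridisation and that of the dimmer one does not. Without wild-type replicate 1 the brighter probe set differed by -0.66, and without wild-type replicate 2 by -1.08.

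Psmb6, the caspase-like subunit, had intensities of 12351 and 7494 in the knockouts, versus 21117 and 11132 in the wild types. The genotypes overlapped, and the spread within each was large (log2 -0.67, SE 0.50, adjusted p = 0.992, and -0.21 without wild-type replicate 1). Psmb7, the trypsin-like subunit, measured 8471 and 9282 in Nrf2 -/- spleens, while Nrf2 +/+ spleens gave 8421 and 8315. Its probe set is also marked for possible cross-hybridisation and was nearly level in all 4 arrays (log2 0.08, SE 0.39, 95% confidence interval -0.83 to 0.995). Psmb4, a structural beta subunit, gave 41223 and 39440 on the knockout arrays, compared with 93106 and 36442 on the wild-type arrays, so its difference of -0.53 rested on wild-type replicate 1 and was 0.15 without that array. The tested Psmb4 probe set is marked for possible cross-hybridisation too. Psmb1, Psmb2 and Psmb3, the remaining structural subunits, differed by -0.31 to 0.19, and the 2 tested Psmb1 probe sets by -0.31 and 0.10.

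The shift from constitutive to immune catalytic subunits was compared within each array, as the log2 difference of the immune gene over the gene it replaces. Only the change of this difference between arrays carries meaning, since probe sets differ in brightness. Each gene was taken on its brightest probe set, which for Psmb5 is the marked one that differed by -0.87. The other Psmb5 probe set differed by 0.00, so the result for Psmb8 over Psmb5 depends on that choice. Psmb8 over Psmb5 was 2.84 and 2.50 on the knockout arrays, compared with 2.85 and 2.11 on the wild-type arrays. Psmb9 over Psmb6 was 0.25 and 0.27 in the knockouts, versus -0.73 and 0.50 in the wild types. For both pairs the knockout values lay within the wild-type range (exact permutation test, two-sided, p = 1 each). Psmb10 over Psmb7 was 0.73 and 0.08 in the knockouts, versus 1.66 and 0.83 in the wild types. On the probe sets used, this pair alone separated the genotypes (difference -0.84, exact permutation p = 0.33, which is the smallest p that 2 against 2 arrays allow, adjusted p = 1 over 3 pairs). The difference was -0.42 without wild-type replicate 1, -1.25 when wild-type replicate 2 was left out, and -0.52 when knockout replicate 2 was. The differences of Psmb8 over Psmb5 and Psmb9 over Psmb6 were 0.56 and -0.24 without wild-type replicate 1, and 0.19 and 0.38 with all arrays.

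The alpha subunits, which form the outer rings and the gate of the core, did not differ in one direction. Of 7 tested, 4 measured higher and 3 lower in knockout spleen, with a median of 0.09 and none past the threshold. Psma1 had intensities of 5386 and 4580 in the knockouts, versus 2139 and 4889 in the wild types (difference in log2 0.62, SE 0.49, adjusted p = 0.992). The genotypes overlapped, and without wild-type replicate 1 the difference was 0.02. Psma7 measured 8737 and 6614 in Nrf2 -/- spleens, while Nrf2 +/+ spleens gave 12719 and 9569 (log2 -0.54, SE 0.42, adjusted p = 0.992). It was the only alpha subunit whose genotypes did not overlap, and without wild-type replicate 1 it differed by -0.33.

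Psma5 gave 7333 and 8808 on the knockout arrays, compared with 5190 and 8894 on the wild-type arrays (log2 0.24). Psma6 had intensities of 32938 and 33454 in the knockouts, versus 38199 and 31288 in the wild types (difference in log2 -0.06). The knockout values of both genes lay within the wild-type range, and their differences were -0.15 and 0.0854 without wild-type replicate 1. Psma2, Psma3 and Psma4 differed by 0.09, -0.08 and 0.22. Wild-type replicate 1 was the lowest or highest array for all 7 alpha subunits, the lowest for 4 and the highest for 3. Over all tested probe sets it was the lowest or highest in 76.7%. The alpha median was -0.15 without that array and 0.55 without wild-type replicate 2.

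The ATPases of the regulatory particle, the ring that unfolds substrates, measured lower in knockout spleen on all 7 tested probe sets of 5 genes, with none past the threshold. The median difference was -0.57, from -1.01 to -0.25, and 46.5% of all tested probe sets measured lower. Psmc3 was measured by 3 probe sets that gave similar differences of -1.01, -0.99 and -0.85. The brightest measured 8820 and 8346 in Nrf2 -/- spleens, while Nrf2 +/+ spleens gave 28650 and 10426 (log2 -1.01, SE 0.54, unadjusted p = 0.101, limma adjusted p = 0.992). All 3 names carry a mark of possible cross-hybridisation, and the genotypes overlapped on 1 of the 3. The brightest differed by -0.28 without wild-type replicate 1.

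Psmc5 gave 7695 and 7153 on the knockout arrays, compared with 14736 and 8231 on the wild-type arrays (log2 -0.57, SE 0.45). Psmc1 had intensities of 5695 and 5059 in the knockouts, versus 9150 and 6096 in the wild types (difference in log2 -0.48, SE 0.42). Both separated the genotypes, with wild-type replicate 2 close above the knockout arrays, and without wild-type replicate 1 they differed by -0.15 and -0.18. Psmc6 measured 29373 and 33973 in Nrf2 -/- spleens, while Nrf2 +/+ spleens gave 43936 and 32143 (log2 -0.25), and Psmc2 differed by -0.28. These 2 genes overlapped between genotypes, and Psmc6 differed by -0.0251 without wild-type replicate 1. Wild-type replicate 1 was the highest array on all 7 ATPase probe sets, and was the highest on 37.4% of all tested probe sets. Without it the median was -0.15 with 5 of 7 lower, and without wild-type replicate 2 it was -0.99 with 7 of 7 lower. Psmc4 was too dim to test.

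**Figure D3:**
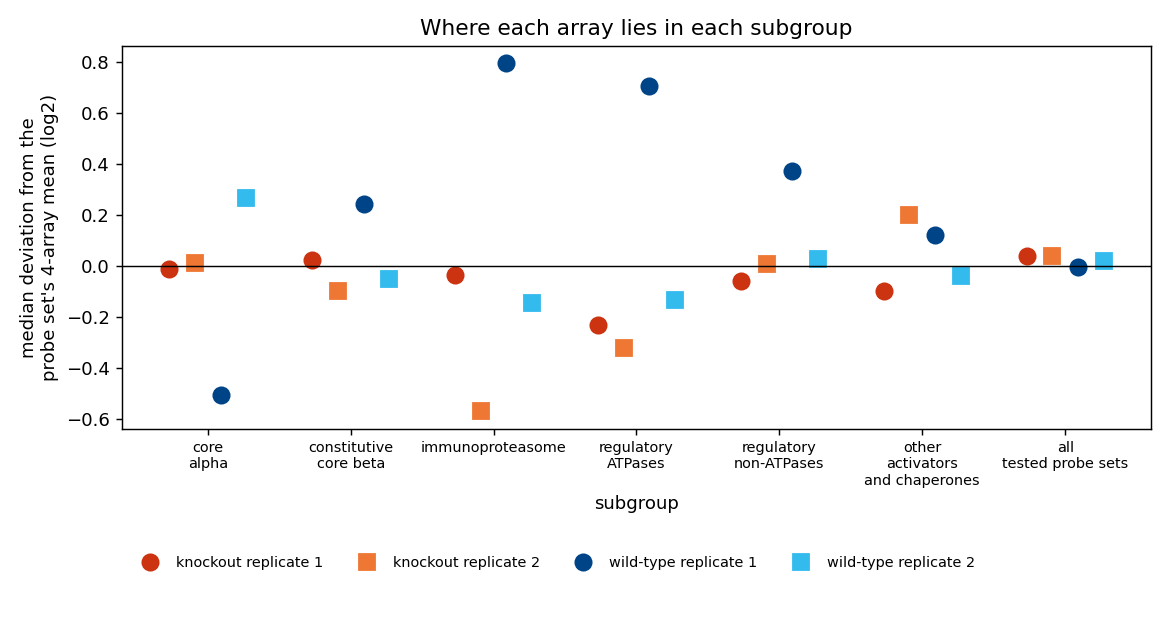
Median deviation of each array from the probe set's mean over 4 arrays (log2), by role, with all tested probe sets at the right. Wild-type replicate 1 lies at 0.79 for the immunoproteasome, 0.71 for the ATPases and -0.51 for the alpha subunits, and near 0 over all probe sets.

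The other subunits of the regulatory particle form its base and lid, bind ubiquitin or remove it. Of 15 tested probe sets 8 measured higher and 7 lower in knockout spleen, with a median of 0.05 and none past the threshold. Psmd13, a lid subunit, gave 1981 and 2000.3 on the knockout arrays, compared with 3325 and 3183 on the wild-type arrays. Arrays of 1 genotype agreed closely here, and the knockout level was 1.63-fold lower (log2 -0.71, SE 0.37, 95% confidence interval -1.57 to 0.15, unadjusted p = 0.0941, limma adjusted p = 0.992). With any 1 array left out the difference stayed between -0.74 and -0.68.

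Psmd4, a ubiquitin receptor, had intensities of 11771 and 15009 in the knockouts, versus 28303 and 14577 in the wild types (difference in log2 -0.61). The difference was -0.13 without wild-type replicate 1. Psmd10, also called gankyrin and a chaperone of base assembly, measured 1341 and 1448 in Nrf2 -/- spleens, while Nrf2 +/+ spleens gave 2511 and 1774 (log2 -0.60, SE 0.40, adjusted p = 0.992). Its genotypes did not overlap, and it differed by -0.35 without wild-type replicate 1. Psmd5 and Psmd9, further chaperones of base assembly, differed by 0.38 and -0.41 and overlapped.

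Psmd14, the deubiquitinase of the lid, differed by 0.10, and Psmd1, a scaffold of the base, by 0.27. Psmd6, a lid subunit, gave 11469 and 11122 on the knockout arrays, compared with 9148 and 12912 on the wild-type arrays (log2 0.06, and -0.19 without wild-type replicate 1). The lid genes Psmd3, Psmd7, Psmd8 and Psmd12 differed by 0.18, 0.40, -0.25 and -0.28. None of these genes but Psmd3 separated the genotypes. The lid subunit Psmd11 was measured by 3 probe sets that did not agree, with differences of -0.20, 0.05 and 0.90. The last had intensities of 2972 and 3124 in the knockouts, versus 1049 and 2528 in the wild types, and is not the brightest of the 3. The median of the 15 probe sets was -0.06 without wild-type replicate 1.

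The remaining members are other activators and the chaperones that build the alpha ring. Psme3, which encodes the nuclear activator PA28gamma, measured 5099 and 10015 in Nrf2 -/- spleens, while Nrf2 +/+ spleens gave 1634 and 6164. It had the highest difference of all members, but the genotypes overlapped (log2 1.17, SE 0.66, 95% confidence interval -0.37 to 2.71, unadjusted p = 0.117, limma adjusted p = 0.992). The value was 0.21 without wild-type replicate 1. Psme4, which encodes the activator PA200, gave 4604 and 5641 on the knockout arrays, compared with 3536 and 5924 on the wild-type arrays (log2 0.15, and -0.22 without wild-type replicate 1).

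Psmg1, an assembly chaperone, had intensities of 1621 and 2605 in the knockouts, versus 3150 and 2286 in the wild types (difference in log2 -0.39). Psmg4, another chaperone of core assembly, measured 4745 and 4723 in Nrf2 -/- spleens, while Nrf2 +/+ spleens gave 7419 and 4888 (log2 -0.35). Psmg1 overlapped between genotypes, and its difference was -0.15 without wild-type replicate 1, -0.0428 when knockout replicate 1 was left out, and -0.73 when knockout replicate 2 was. Psmg4 did not overlap, and differed by -0.0461 without wild-type replicate 1. Psmg2 differed by 0.42, and the 2 probe sets of Psmg3 by 0.33 and -0.08. Of these 7 probe sets 4 measured higher and 3 lower (median 0.15), and without wild-type replicate 1 the median was -0.05.

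**Figure D4:**
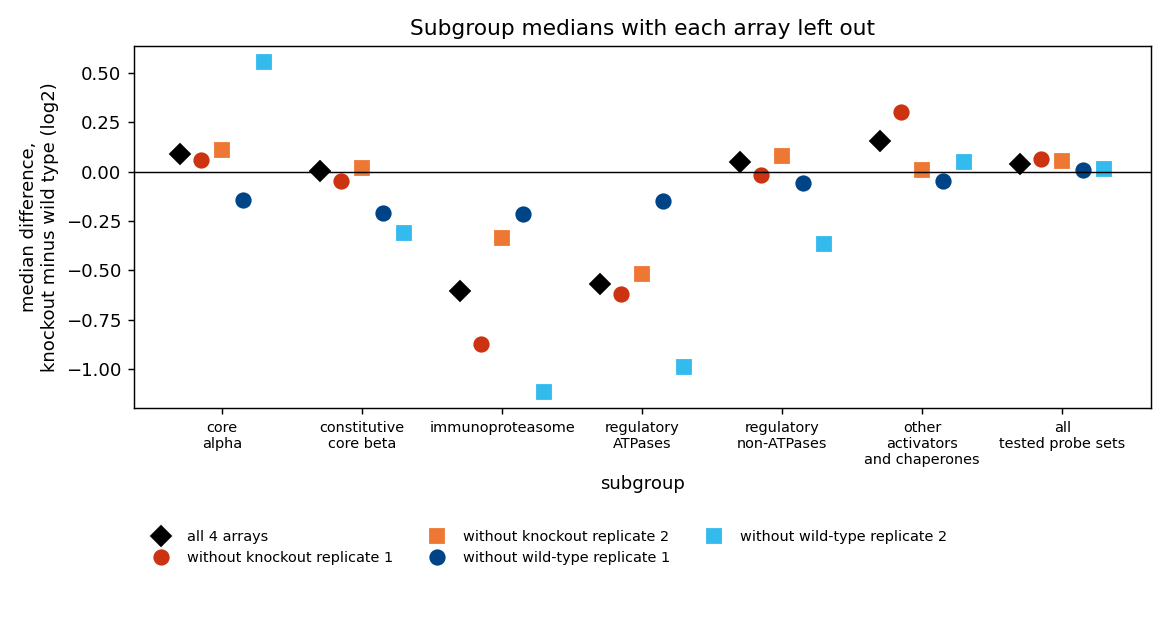
Median difference of each role, knockout minus wild type (log2), with all 4 arrays and with each array left out. Immunoproteasome and ATPase medians lie below 0 in all 5 fits, between -1.12 and -0.15, and the alpha median runs from -0.15 to 0.55.

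Set against wild-type replicate 2 alone, the medians of all 6 roles lay between -0.22 and -0.05, with 31 of 51 members lower in knockout spleen. Over all tested probe sets the median in that fit was 0.01, with 49.2% lower. No member passed there, and 0 had an unadjusted p under 0.05. Set against wild-type replicate 1 alone, 20 members had an unadjusted p under 0.05 and 0 passed, where 29.4% of all tested probe sets had such a p. In both of these fits the lone wild-type array is assumed to vary like the knockout arrays, whose pair alone gives the residual spread, so these p-values do not measure the spread between wild-type spleens. Wild-type replicate 1 lay over 2-fold beyond the other arrays for 15.7% of members, against 15.6% of all tested probe sets.

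Genes that work with the proteasome did not pass the test either. Of 42 genes of ubiquitin tagging, shuttling and proteasome assembly, 26 were tested, and 16 measured higher and 10 lower in knockout spleen (median 0.20, 0 past the threshold). Pomp, the chaperone that completes the core and favours immunoproteasome assembly, gave 15667 and 14212 on the knockout arrays, compared with 31991 and 19874 on the wild-type arrays (log2 -0.76, SE 0.44, adjusted p = 0.992). Its genotypes did not overlap. Nfe2l1 had intensities of 5398 and 4442 in the knockouts, versus 2910 and 5812 in the wild types, and overlapped (log2 0.25, SE 0.46, adjusted p = 0.992). Without wild-type replicate 1 the list had 12 higher and 14 lower, with a median of -0.01.

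Of 30 genes of peptide loading and interferon response, 20 were tested, and 16 measured higher and 4 lower in knockout spleen (median 0.20, 0 past the threshold). In the RefSeq gene order Psmb9, Tap1, Psmb8 and Tap2 follow each other on chromosome 17, in the MHC, where Tap1 and Tap2 encode the peptide transporter. Tap1 measured 23699 and 16540 in Nrf2 -/- spleens, while Nrf2 +/+ spleens gave 34714 and 20714 (log2 -0.44). Its arrays had the same order as those of Psmb8. Tap2 gave 5118 and 3391 on the knockout arrays, compared with 2810 and 3376 on the wild-type arrays (log2 0.44, SE 0.41). Its knockout values were the higher ones, but the arrays numbered 2 were nearly level. Irf1, an interferon-induced transcription factor that drives immunoproteasome genes, differed by 0.00. Without wild-type replicate 1 the list had 14 higher and 6 lower, with a median of 0.08.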

How the data were processed

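The authors deposited 1 linear intensity per probe set for each 1-colour array. Their software, scaling and genome build were not stated in the labels or headers. The 2% trimmed means of the 4 arrays lay between 2501.5 and 2502.0, so no further scaling was applied. The 66 control probe sets were left out, intensities below the pooled 25th percentile (185) were raised to it, log2 was taken, and the 7452 probe sets whose mean lay above the 40th percentile were tested. A fold difference on this scale understates that of dim genes. Of 12422 probe sets 10833 had 1 symbol, 396 several and 1193 none, and 10817 symbols were matched by gene identifier to the RefSeq table (GRCm38.p6).

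Genotypes were tested with limma 3.58.1 under R 4.3.3 (lmFit, eBayes with an intensity trend, two-sided, Benjamini-Hochberg over all tested probe sets at 0.05). The median standard error was 0.46, and the number of arrays limits the precision. The test was tried on simulated data. Values per array are given for immunoproteasome and catalytic genes, for any member with an unadjusted p under 0.05, and in each role for up to 3 further genes with the smallest p and the 1 with the smallest difference. Genes whose probe sets differed in sign or by over 1 on the log2 scale were described too. The members and lists were chosen with earlier results of these data known. Psmc3ip and Psme3ip1 match the rule for members by name but are no subunits, and were kept out of the roles after the data were seen. Samples of both genotypes carry numbers 1 and 2, with no stated pairing, so the fit has no block. Alternatives changed the scaling, the floor, the filter, the variance model, the block, the choice of probe sets, or left 1 array out. Plots used matplotlib 3.10.9 (Python 3.11.15).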

Additional observations from a re-analysis of the deposited data

How the results depend on the processing

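No proteasome probe set passed the threshold under any of the 16 settings tried, which included median and quantile scaling, another floor, a pseudocount of 100, other filters and array weights. A replicate block gave 0 as well, while 36 of all tested probe sets (0.483%) passed. No pairing is stated for equal numbers, and same-numbered arrays deviated together with r = 0.04 across probe sets. The spread between replicates was taken as the SD of each role's median on the log2 scale. It was 0.54 for the immunoproteasome, 0.42 for the ATPases, 0.39 for alpha subunits and 0.16 for constitutive beta subunits. In such a median, genes that move in opposite directions cancel. For single probe sets the median distance between the wild-type arrays was 0.95, 0.84, 0.78 and 0.63 in the same order of roles. With 1 array left out the immunoproteasome median ranged from -1.12 to -0.22 and the ATPase median from -0.99 to -0.15. Those moves stayed inside the spread only because it was wide for these 2 roles, and it was nearly as wide for alpha subunits. Every median kept within its own spread under the other settings except as follows. With only the brightest probe set of each gene the constitutive beta median was -0.31 and the regulatory non-ATPase median -0.20. With 1 array left out the median ranged from -0.31 to 0.0177 for constitutive beta subunits, from -0.15 to 0.55 for alpha subunits, from -0.36 to 0.0777 for regulatory non-ATPases and from -0.0461 to 0.30 for other activators and chaperones. Among the 24 named genes, Psmd6 turned to -0.0032 with median scaling and Psma6 to 0.0681 with quantile normalization. Over the fits that each drop 1 array, differences spanned -0.64 to 0.0564 for Psmb9, -0.15 to 0.63 for Psma5, -0.20 to 0.0854 for Psma6, -1.21 to 0.15 for Psmb4, -0.19 to 0.30 for Psmd6 and -0.22 to 0.53 for Psme4. Psmb8 over Psmb5 ranged from -0.18 to 0.56, Psmb9 over Psmb6 from -0.24 to 0.998 and Psmb10 over Psmb7 from -1.25 to -0.42, in settings added after the data were seen, as were the counts by role and list without each array. Counting Psmc3ip with the ATPases, chosen after seeing the data, gave a median of -0.59. The cause of these moves was not tested.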

Other observations

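Members that belong to no role or were too dim to test were these. Psmc3ip, which encodes a meiotic recombination factor named after the subunit it binds, had intensities of 294 and 613 in the knockouts, versus 848 and 493 in the wild types (difference in log2 -0.61, limma adjusted p = 0.992). Psme3ip1, which encodes a protein that binds PA28gamma, measured 5737 and 7265 in Nrf2 -/- spleens, while Nrf2 +/+ spleens gave 4638 and 4665, without overlap (log2 0.47, limma adjusted p = 0.992). Psmc4 gave 157 and 191 on the knockout arrays, compared with 520 and 165 on the wild-type arrays, and Psmd2 had intensities of 85.9 and 82.1 in the knockouts, versus 433 and 82.4 in the wild types. In both, wild-type replicate 1 alone was well above the floor of 185. Further dim probe sets were not tested, while a brighter one of each gene was, and over the 4 arrays they ranged from 202 to 315 for Psmb1, from 102.8 to 314 and from 7.2 to 104.7 for Psmb4, from 182 to 534 for Psmc5 and from 149.7 to 216 for Psme1.

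Marker lists of other cells are given by their values, with none past the threshold with all 4 arrays included. The 9 tested genes of the exocrine pancreas, a tissue beside the spleen, had a median difference of -1.65, with 7 of 9 lower in knockout spleen. Their summed intensity was 10662 to 11637 in knockout and 22313 to 83473 in wild-type spleen, highest in wild-type replicate 1. That array was also the highest for 30 of the 51 tested members (58.8%), against 37.4% of all tested probe sets. The pancreas median was -1.17 without that array and -2.59 when the other wild-type array was left out. The 8 tested erythroid genes had a median of -0.81, with 8 of 8 lower in knockout spleen, and 0.19 with 3 of 8 lower without knockout replicate 1. Summed erythroid intensity was 167773 to 288323 in knockout and 248856 to 478918 in wild-type spleen. Most of it came from Hba-a1, at 146150 and 180966 in the knockouts, versus 366584 and 150439 in the wild types. The 12 tested neutrophil genes had a median of 1.30, with 12 of 12 higher in knockout spleen. Of them 6 reached an unadjusted limma p under 0.05, as did 6 of 9 pancreas genes, against 1.78% of all tested probe sets. It was also reached by 2 of 9 B cell, 2 of 9 T cell and 1 of 8 erythroid genes. Of the plasma cell, dendritic cell and macrophage genes 0 reached it. The neutrophil median was 2.01 without wild-type replicate 1 (12 of 12 higher) and 0.37 when the other wild-type array was left out (8 of 12 higher). The summed intensity of the 13 measured neutrophil genes was 536580 and 596827 in knockout spleen, and 716376 and 178617 in wild-type spleen, so the sums overlapped. Of 5 plasma cell genes 4 were higher (median 0.70, and 0.20 without wild-type replicate 1), as were 4 of 6 dendritic cell genes (median 0.18, and 0.07 without it). Of 9 red pulp macrophage genes 5 were higher (median 0.29), and 3 were higher without wild-type replicate 1 (median -0.19). The part of these cells in the proteasome values was not tested.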
